A study of Mus musculus with 6 samples.

Results

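Butyrate uptake, sensing and ketone body metabolism were examined through 7 genes in the colon of mice that lack HDAC1 and HDAC2 in the intestinal epithelium. The members were chosen by function and by gene symbol, with earlier results of these data known. They were Slc16a1 and Slc5a8 for uptake, Ffar2 and Ffar3 for sensing, and Bdh1, Acat1 and Oxct1 for ketone body metabolism. Of these, 6 genes with 14 probe sets were measured, of 18193 named genes and 45037 probe sets in all, and Ffar3 was not analysed here. A probe set is the group of short probes on the array that reports 1 transcript region, and every probe set that carried only the symbol of a member was kept. HDAC1/2 deficient mice carried floxed Hdac1 and Hdac2 alleles and villin-Cre, a transgene whose promoter is active in intestinal epithelial cells, whereas the control mice are labelled wild type. Whether the controls carried floxed alleles or Cre is not given in the sources used here. According to the methods, colon RNA of 3 HDAC1/2 deficient and 3 control mice was hybridized to Affymetrix mouse genome arrays, 1 array per sample. The mice were untreated and on normal diet. By the published description of the arrays, both groups were 4 months old. The labels name the epithelium as source and the methods name the colon itself. The smooth muscle genes Acta2, Tagln and Actg2 were between 13.05 and 14.10 on the log2 scale in deficient colon and between 13.43 and 14.23 in control colon, so that RNA of the muscle layers was present. In such tissue RNA, fewer cells of a type and less RNA per cell cannot be told apart.

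Butyrate is a short-chain fatty acid that colonic bacteria release when they ferment fiber, and it is the preferred fuel of colonocytes. It enters these cells through the proton-coupled transporter MCT1 (Slc16a1) and the sodium-coupled transporter SMCT1 (Slc5a8), is activated to its coenzyme A ester and is oxidized in mitochondria to acetyl-CoA. Ketone bodies are made from acetyl-CoA and burned again: BDH1 interconverts acetoacetate and beta-hydroxybutyrate, OXCT1 transfers coenzyme A to acetoacetate, and ACAT1 interconverts acetoacetyl-CoA and acetyl-CoA. FFAR2 and FFAR3 are G protein-coupled receptors of short-chain fatty acids, found on enteroendocrine cells and, for FFAR2, on myeloid cells. Butyrate and beta-hydroxybutyrate are themselves inhibitors of class I histone deacetylases, the class of HDAC1 and HDAC2, the enzymes deleted in these mice.

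The region before the transcription start is shown for 4 starts, those of the transporter genes and the outermost starts of Ffar2 and Bdh1. Which starts are used in colon, and any link between these sequences and the changes, was not tested. The sequences are from RefSeq (GRCm38.p6), run 5′ to 3′ and end at the base before the annotated start. Capitals mark matches to 5 motifs searched on both strands: the GC box GGGCGG, the E-box CACGTG, the TATA motif TATAAA, the CCAAT box and the cyclic AMP response element TGACGTCA.
Slc16a1, chr3:104638414-104638663, + strand: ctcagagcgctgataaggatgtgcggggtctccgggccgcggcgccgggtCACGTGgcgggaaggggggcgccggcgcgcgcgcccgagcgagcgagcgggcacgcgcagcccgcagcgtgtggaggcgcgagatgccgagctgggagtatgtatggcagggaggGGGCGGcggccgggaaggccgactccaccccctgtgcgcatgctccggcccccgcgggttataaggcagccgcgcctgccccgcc
Slc5a8, chr10:88885742-88885991, + strand: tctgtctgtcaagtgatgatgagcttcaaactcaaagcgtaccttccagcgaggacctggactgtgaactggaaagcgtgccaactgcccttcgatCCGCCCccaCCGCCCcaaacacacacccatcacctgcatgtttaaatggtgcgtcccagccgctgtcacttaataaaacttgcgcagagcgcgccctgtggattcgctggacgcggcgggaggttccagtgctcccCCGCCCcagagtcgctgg
Ffar2, outermost start, chr7:30823776-30824025, - strand: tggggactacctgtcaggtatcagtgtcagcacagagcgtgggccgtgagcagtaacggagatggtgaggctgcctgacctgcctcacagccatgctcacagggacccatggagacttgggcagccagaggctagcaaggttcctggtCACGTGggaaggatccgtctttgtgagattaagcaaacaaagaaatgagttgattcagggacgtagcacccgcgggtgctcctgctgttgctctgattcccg
Bdh1, outermost start, chr16:31422047-31422296, + strand: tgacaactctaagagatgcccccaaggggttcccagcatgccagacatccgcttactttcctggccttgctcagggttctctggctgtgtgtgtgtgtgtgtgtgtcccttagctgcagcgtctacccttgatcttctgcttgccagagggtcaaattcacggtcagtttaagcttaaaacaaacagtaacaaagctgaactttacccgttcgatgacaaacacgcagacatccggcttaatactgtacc

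RefSeq windows were found for 6 of the 7 genes, 10 windows in all, with 4 starts for Ffar2, 2 for Bdh1 and 1 each for Slc16a1, Slc5a8, Ffar3 and Oxct1. The Slc16a1 window was the richest in G and C, at 76.4%, against a median of 52.4% over 32851 windows of 250 bases. It held 1 GC box and 1 E-box. The Slc5a8 window, with 58.8% G and C, held 3 GC boxes, a motif that 32.7% of all windows contain. An E-box, found in 6.02% of all windows, stood also before the outermost Ffar2 start, and the windows of the 2 innermost Ffar2 starts, which overlap, shared a GC box. The innermost also held a CCAAT box, found in 33.8% of all windows. The windows of Oxct1 and of both Bdh1 starts held none of the 5 motifs. The Ffar3 window held a cyclic AMP response element, which 1.55% of all windows have. A match describes the letters and does not show that a factor binds there.

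Values are RMA signals on the log2 scale, that is, background-corrected and normalized over all arrays by the authors. The median of each array was between 6.78 and 6.81. Each probe set was compared between the groups with limma, a linear model with a moderated variance, with p adjusted by the method of Benjamini and Hochberg over all 45037 probe sets and called at an adjusted p under 0.05. Each difference is the log2 fold change, deficient minus control, with its standard error (SE), and genes with several probe sets are represented by the brightest. Hdac1 was at 9.27, 9.21 and 9.32 in deficient colon, against 10.60, 10.53 and 10.56 in control colon, whereas the brightest probe set of Hdac2, at 11.02, 10.92 and 11.00 in deficient colon and 10.96, 10.92 and 10.93 in control colon, did not pass the test (adjusted p = 0.475). All 3 deficient arrays carried both Xist, the RNA of the inactive X chromosome, at 12.01, 11.99 and 12.06, and the Y-linked Eif2s3y, at 8.32, 8.49 and 8.22. The sample titles name mice and a replicate number, not the count of mice per array. Whether an array held the RNA of 1 mouse or of several was not tested. In control colon Xist was at 12.88, 12.85 and 12.81 and Eif2s3y at 3.84, 4.31 and 4.11. The groups therefore differed in sex-linked RNA as well as in genotype, and the part of each in the values below cannot be told apart. Arrays of one group correlated at 0.9984 or more, so p-values measure only the spread between these arrays, which may be technical.

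All 6 measured genes passed the test, 2 higher and 4 lower in HDAC1/2 deficient colon, and in all 6 the groups did not overlap. Over all genes 50.4% passed, 21.9% higher and 28.4% lower, and the groups did not overlap in 60.9%. The brightest probe sets of the 6 genes all lay above the 80th percentile of mean signal, and of the 5926 genes in that range 71.3% passed, 31.4% higher and 39.8% lower, against which the count of 6 of 6 is to be read. No member changed more than 2-fold, as 2.25% of all genes did upward and 1.82% downward. The median log2 fold change was -0.41 over the 6 genes and -0.02 over all 18193 genes. Of the 14 probe sets, 3 rose, 8 fell and 3 did not pass, where 39.8% of all probe sets passed, 18.8% higher and 21.0% lower, and the groups did not overlap in 12 of them, against 50.0% of all probe sets.

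**Figure D1:**
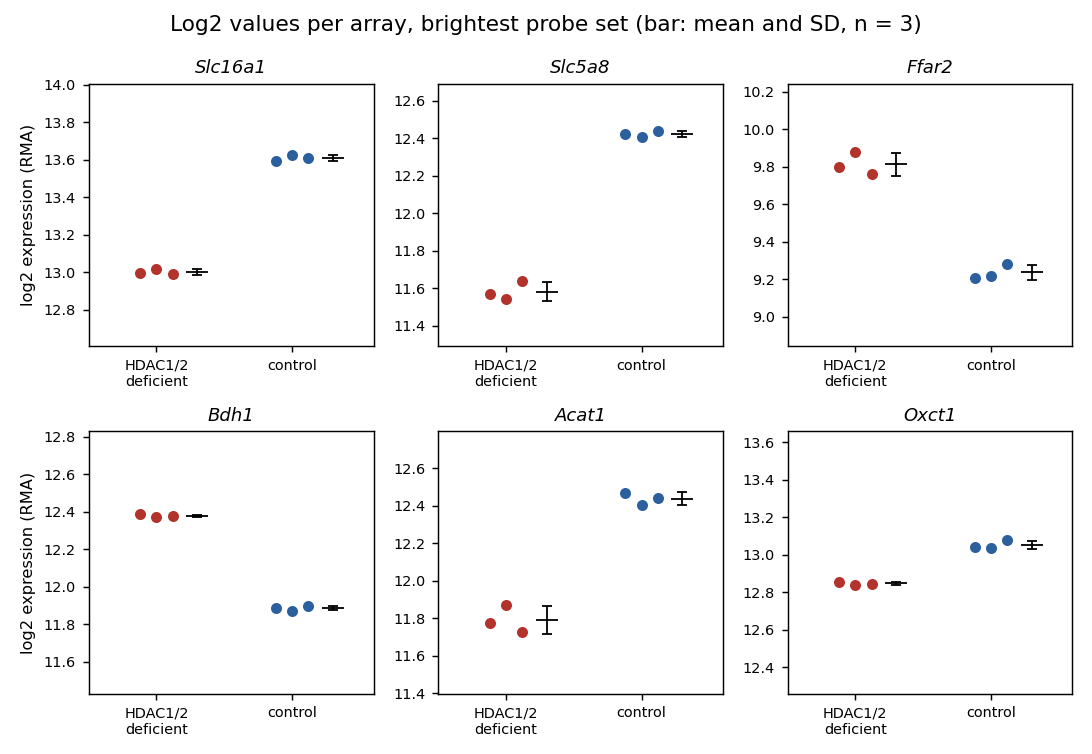
Log2 expression (vertical axis, RMA values) of the 6 measured genes, brightest probe set, with 1 point per array and a bar for mean and SD of 3 arrays, HDAC1/2 deficient on the left and control on the right of each panel. Slc16a1, Slc5a8, Acat1 and Oxct1 lie lower and Ffar2 and Bdh1 higher on all 3 deficient arrays than on all 3 control arrays, and the vertical axes do not start at 0.

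Both butyrate transporter genes fell. Slc5a8, which encodes the sodium-coupled transporter of the apical membrane, was at 11.57, 11.54 and 11.64 in deficient colon, against 12.42, 12.41 and 12.44 in control colon. Every deficient array was below every control array. The difference was -0.84 (SE 0.043, 95% interval -0.94 to -0.74, limma adjusted p = 5.34e-06), a level of 0.558 of control, and 6.10% of all genes had a larger absolute change. Slc16a1, which encodes the proton-coupled transporter MCT1, was at 13.00, 13.02 and 12.99 in deficient colon, against 13.59, 13.62 and 13.61 in control colon (difference -0.61 ± 0.038 SE, limma adjusted p = 1.44e-05), a level of 0.656 of control. The spread within the groups was 0.014 in deficient and 0.015 in control colon (SD, n = 3 each), far less than the difference. The second Slc16a1 probe set was dim, at the 35.3rd percentile of mean signal. It was at 5.91, 5.82 and 5.94 in deficient colon, against 6.12, 6.04 and 6.26 in control colon. It fell by 0.25 on the log2 scale (SE 0.065, limma adjusted p = 0.0170), in the same direction as the bright probe set. Slc5a8 was read by a single probe set.

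The carriers around these genes went both ways. Of 15 other monocarboxylate carrier and chaperone genes measured, of 16 listed, 2 rose, 5 fell and 8 did not pass, with a median of -0.06. This count was near the share of all genes, of which 50.4% passed. Bsg, which encodes basigin, the chaperone that brings MCT1 to the membrane, was at 12.27, 12.34 and 12.28 in deficient colon, against 12.40, 12.35 and 12.41 in control colon, and did not pass (difference -0.09, limma adjusted p = 0.141). Emb, which encodes embigin, a chaperone of the same family, was at 8.21, 8.32 and 8.18 in deficient colon, against 7.13, 7.28 and 7.23 in control colon. It rose by 1.02 on the log2 scale (SE 0.058, limma adjusted p = 8.84e-06), and 2 of its 3 probe sets rose while 1, at 0.03, did not pass. The largest rise of the list was that of Slc16a6, a carrier of the ketone body beta-hydroxybutyrate in zebrafish liver. It was at 8.49, 8.48 and 8.32 in deficient colon, against 7.31, 7.32 and 7.29 in control colon (difference 1.12 ± 0.055 SE, limma adjusted p = 4.36e-06). Slc16a9, a carrier gene of the same family, fell by 0.95 on the log2 scale in its brightest probe set and in all 3 of its probe sets (-1.35 to -0.50). Slc16a12, a creatine carrier gene, fell by 0.79 (limma adjusted p = 3.19e-05). Slc16a7, which encodes the pyruvate and lactate carrier MCT2, fell by 0.51 on the log2 scale (limma adjusted p = 0.00292), and Slc16a13 and Slc16a10 had changes of -0.25 and -0.18. Without deficient array 3 or without control array 1, both lost their call and 3 genes of the list fell. Slc16a3, the lactate exporter gene of glycolytic cells, was at 6.22, 6.50 and 6.23 in deficient colon and 6.12, 6.11 and 6.07 in control colon and did not pass (limma adjusted p = 0.0572). Slc5a12, the low-affinity relative of Slc5a8, was dim in both groups, at 4.13 in deficient and 4.08 in control colon, and did not pass (limma adjusted p = 0.576).

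The receptor gene Ffar2 rose, and both of its probe sets gave nearly the same change. The brightest was at 9.80, 9.88 and 9.76 in deficient colon, against 9.21, 9.22 and 9.28 in control colon (difference 0.58 ± 0.048 SE, 95% interval 0.46 to 0.69, limma adjusted p = 5.77e-05). The other was at 9.72, 9.74 and 9.72 in deficient colon, against 9.20, 9.20 and 9.11 in control colon. It rose by 0.56 (limma adjusted p = 4.14e-05), and in neither probe set did an array of one group reach the range of the other. The level in deficient colon was 1.49 and 1.47 times that of control colon in the 2 probe sets.

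Markers of the cells known to express Ffar2 moved with the groups, in different directions. Of 8 macrophage genes measured, 6 rose and 0 fell, and their summed level, on the log2 scale, was 13.65 to 13.67 in deficient colon and 12.91 to 12.95 in control colon. They included C1qa (1.33) and Csf1r (1.12), the genes of a complement subunit and of the receptor of a macrophage growth factor. Of 6 neutrophil genes measured, 3 rose, 0 fell and 3 did not pass, with a median of 0.32. Their summed level was 10.77 to 10.81 in deficient colon and 8.71 to 8.81 in control colon. Such a sum is weighted toward bright genes, in deficient colon S100a8 at 10.07 and S100a9 at 8.55. S100a8, a calprotectin subunit gene, rose by 4.19 on the log2 scale, whereas Mpo, which encodes the myeloperoxidase of neutrophil granules, was at 5.23 in deficient and 5.25 in control colon and did not pass. Of 8 enteroendocrine genes, 2 rose and 5 fell, and the summed level was 14.59 to 14.63 in deficient colon and 14.62 to 14.64 in control colon. Sct and Cck, the secretin and cholecystokinin genes, rose by 3.81 and 1.59 on the log2 scale. Chga, with the largest fall of the list, Chgb and Neurod1 had changes of -1.24, -0.46 and -0.45. Gcg and Insl5, hormone genes of the L cells that carry FFAR2, had changes of -0.28 and -0.57, and Pyy, at 12.87 in deficient and 12.93 in control colon, did not pass. The part of these cells in the rise of Ffar2 was not tested.

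Other receptors of fatty acids and of related metabolites went both ways. Of 6 measured genes, of 7 listed, 2 rose, 1 fell and 3 did not pass, with a median of 0.07. This count too was near the 50.4% of all genes that passed. Hcar2, whose product GPR109A binds butyrate and beta-hydroxybutyrate, was at 6.74, 6.83 and 6.77 in deficient colon, against 6.54, 6.49 and 6.47 in control colon (difference 0.28 ± 0.045 SE, limma adjusted p = 0.00160). The values are low but the groups did not overlap. Ffar4, a receptor gene of long-chain fatty acids, was at 9.82, 9.82 and 9.78 in deficient colon, against 9.61, 9.49 and 9.57 in control colon (difference 0.25, limma adjusted p = 0.00347). Or51e2, formerly Olfr78, encodes an olfactory receptor of acetate and propionate. It was at 6.19, 6.13 and 6.36 in deficient colon, against 6.95, 6.72 and 6.77 in control colon, a fall of 0.59 on the log2 scale (limma adjusted p = 7.82e-04) that 2 of its 4 probe sets passed. Hcar1, the lactate receptor gene, differed by 0.01 and did not pass (limma adjusted p = 0.916).

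The 3 genes of ketone body metabolism did not move together, since Bdh1 rose and Acat1 and Oxct1 fell. Bdh1, which encodes the mitochondrial beta-hydroxybutyrate dehydrogenase, was at 12.39, 12.37 and 12.38 in deficient colon, against 11.89, 11.87 and 11.90 in control colon (difference 0.49 ± 0.038 SE, 95% interval 0.40 to 0.58, limma adjusted p = 3.67e-05). The spread was 0.0060 in deficient and 0.012 in control colon (SD, n = 3 each). The second Bdh1 probe set was at 10.09, 10.06 and 10.11 in deficient colon, against 10.04, 9.98 and 9.96 in control colon, and did not pass (difference 0.09, 95% interval -0.01 to 0.19, limma adjusted p = 0.140). The groups did not overlap there either, yet the change was smaller, and the intervals of the 2 probe sets did not meet. As the mean of both probe sets, Bdh1 rose by 0.29 on the log2 scale.

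Acat1, which encodes the mitochondrial acetoacetyl-CoA thiolase, fell in all 3 of its probe sets. The brightest was at 11.78, 11.87 and 11.72 in deficient colon, against 12.47, 12.40 and 12.44 in control colon (difference -0.65 ± 0.051 SE, limma adjusted p = 4.31e-05), a level of 0.638 of control. The dimmest was at 9.04, 9.15 and 9.04 in deficient colon, against 9.74, 9.71 and 9.74 in control colon (difference -0.65, limma adjusted p = 2.74e-05). The remaining one was at 11.46, 11.31 and 11.45 in deficient colon, against 11.93, 11.95 and 11.98 in control colon (difference -0.55, limma adjusted p = 1.11e-04). In none of the 3 did the groups overlap.

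Oxct1, which encodes the transferase that commits acetoacetate to oxidation, had the smallest change of the 6 genes. Its brightest probe set was at 12.86, 12.84 and 12.85 in deficient colon, against 13.04, 13.04 and 13.08 in control colon (difference -0.20 ± 0.039 SE, 95% interval -0.29 to -0.11, limma adjusted p = 0.00391). Of all genes, 43.9% had a larger absolute change. A second probe set was at 11.73, 11.74 and 11.70 in deficient colon, against 12.07, 12.06 and 12.07 in control colon, and fell by 0.35 on the log2 scale (limma adjusted p = 2.48e-04). The other 2 probe sets of Oxct1 had changes of -0.10 (95% interval -0.28 to 0.08) and -0.08 (95% interval -0.20 to 0.04) and did not pass, and there the groups overlapped. All 4 estimates were below 0.

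**Figure D2:**
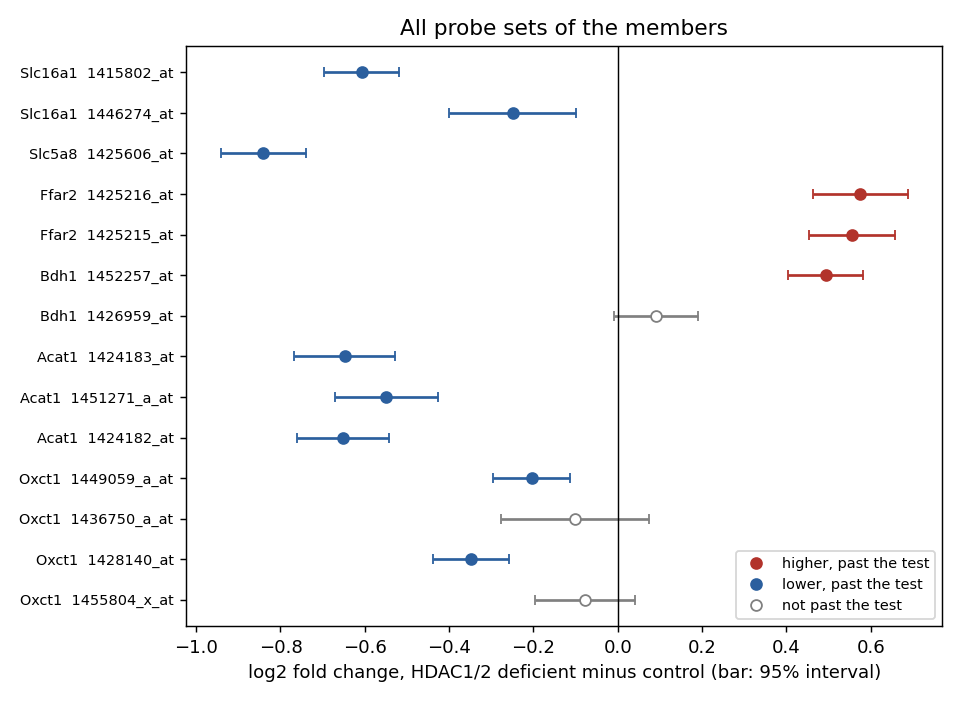
Log2 fold change (horizontal axis, HDAC1/2 deficient minus control, 3 arrays each) of all 14 probe sets of the 6 measured genes, with the 95% interval from limma. The 3 Acat1 probe sets lie together at -0.65 to -0.55 and the 2 Ffar2 probe sets at 0.56 and 0.58, whereas those of Bdh1 (0.09 and 0.49) and of Oxct1 (-0.35 to -0.08) are spread out.

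Other ketone body enzyme genes were few in number. Of 9 listed, 4 were measured, of which 1 rose, 2 fell and 1 did not pass, where 21.9% of all genes rose and 28.4% fell. Hmgcll1, which encodes an extramitochondrial HMG-CoA lyase, was at 5.82, 5.84 and 5.82 in deficient colon, against 6.64, 6.58 and 6.55 in control colon, and fell by 0.76 on the log2 scale (limma adjusted p = 7.92e-06). Aacs, whose product activates acetoacetate in the cytosol for lipid synthesis, was at 10.54, 10.54 and 10.50 in deficient colon, against 10.23, 10.26 and 10.25 in control colon (difference 0.29, limma adjusted p = 7.34e-04). Bdh2, the gene of a cytosolic dehydrogenase, had a change of -0.17 (limma adjusted p = 0.0323), a call lost without any one of the 3 deficient arrays or of control arrays 1 and 2, so that 1 gene of the list fell, and Oxct2a, a relative of Oxct1 known from testis, did not pass (-0.03).

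Genes of butyrate activation and oxidation were split between falls and rises of single steps. Of 15 measured, of 16 listed, 4 rose, 3 fell and 8 did not pass, and the median was -0.02, as for all genes. Over all genes 50.4% passed, 21.9% higher and 28.4% lower, so this count was near that share. The largest change was at the first step, in Acsm3, which encodes a mitochondrial acyl-CoA synthetase of butyrate and related acids. It was at 9.49, 9.50 and 9.38 in deficient colon, against 11.66, 11.66 and 11.68 in control colon. The groups were far apart. Acsm3 fell by 2.21 on the log2 scale (SE 0.047, limma adjusted p = 9.09e-08) to 0.216 of the control level. Acsm1 rose by 0.18 at low signal (limma adjusted p = 0.0488), and its call was lost under most other settings. Acads, which encodes the short-chain acyl-CoA dehydrogenase that oxidizes butyryl-CoA, was at 11.67, 11.75 and 11.69 in deficient colon, against 11.38, 11.39 and 11.41 in control colon (difference 0.31 ± 0.042 SE, limma adjusted p = 6.71e-04). Acaa2, a thiolase gene, rose by 0.62 on the log2 scale (limma adjusted p = 2.02e-05), with all 3 of its probe sets between 0.57 and 0.82. The carriers of electrons from these dehydrogenases went apart. Etfb, a subunit of the electron transfer flavoprotein, rose by 0.41 on the log2 scale, whereas Etfdh, which passes its electrons to ubiquinone, fell by 0.76 (limma adjusted p = 7.44e-06) in the brighter of its 2 probe sets and was at -0.03 in the other. Etfa, Echs1, Hadh and Hadha encode the second flavoprotein subunit and enzymes of the middle steps of fatty acid oxidation. They had changes between -0.07 and 0.03 and did not pass. The list was not limited to genes that act on butyrate alone.

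**Figure D3:**
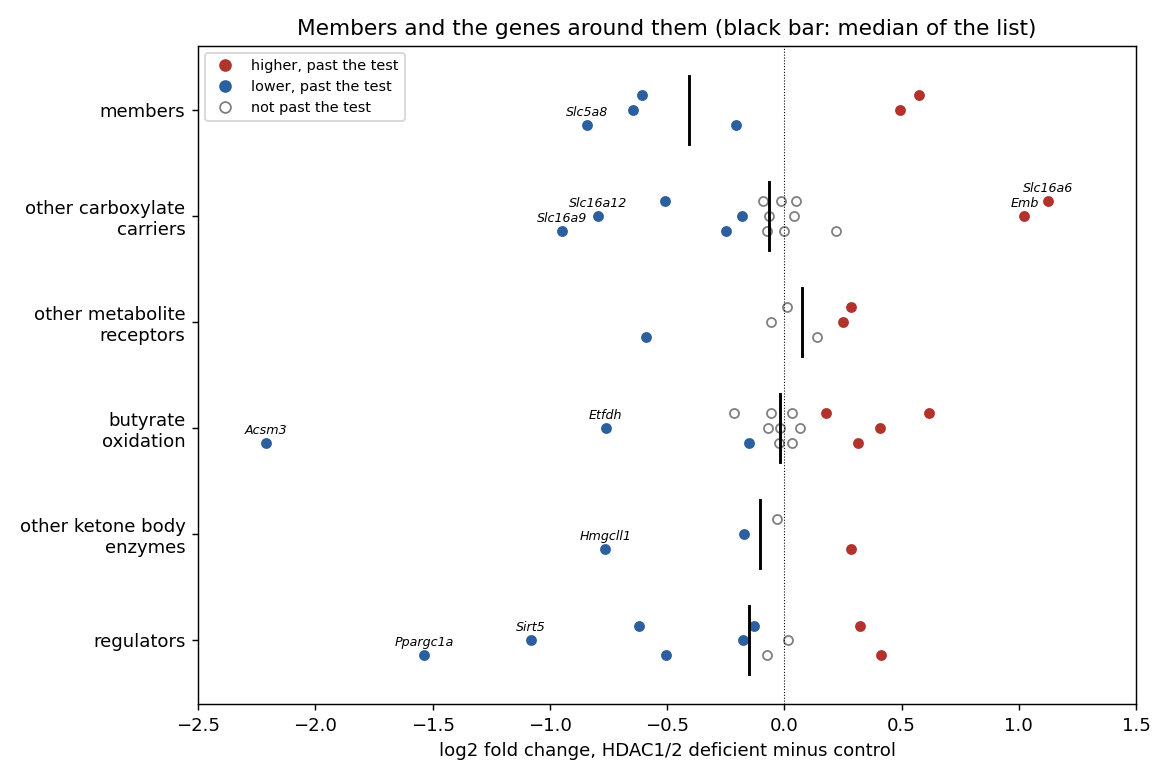
Log2 fold change (horizontal axis, HDAC1/2 deficient minus control) of the 6 measured members and of 50 genes around them in 5 lists, 1 point per gene, filled where limma passed at an adjusted p under 0.05, red for higher and blue for lower. Black bars are list medians, -0.41 for the members and between -0.15 and 0.07 for the other lists, and Acsm3 at -2.21 and Ppargc1a at -1.54 lie farthest to the left.

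Regulators of mitochondrial oxidation and ketone body synthesis went both ways. Of 10 measured, 6 fell, 2 rose and 2 did not pass, where 28.4% of all genes fell and 21.9% rose, and 5 fell when any 1 array was left out. Ppargc1a, which encodes PGC-1alpha, a coactivator of genes of mitochondrial oxidation, was at 9.04, 8.98 and 9.05 in deficient colon, against 10.59, 10.50 and 10.58 in control colon (difference -1.54 ± 0.046 SE, limma adjusted p = 4.33e-07). All 5 of its probe sets fell, by log2 changes of -1.60 to -1.37. The relative Ppargc1b had a change of -0.07 and did not pass (limma adjusted p = 0.190). Sirt5 and Sirt3, mitochondrial deacylases of the sirtuin family, fell by 1.08 and 0.50 on the log2 scale, and Sirt5 was at -0.63 as the mean of its 3 probe sets. Foxa2, a forkhead factor that acts on ketone body genes in liver, fell by 0.62 (limma adjusted p = 1.32e-05). Hnf4a, a nuclear receptor of gut and liver epithelium, fell by 0.18 on the log2 scale (limma adjusted p = 0.00767). Of its 4 probe sets, 3 fell. Without probe sets of shared sequence, the brightest one left did not pass (-0.05, limma adjusted p = 0.644). The dimmest, also not of shared sequence, fell by 0.36 (limma adjusted p = 9.02e-04). Ppara and Pparg, nuclear receptors of fatty acids, rose by 0.32 and 0.41 (limma adjusted p = 0.00476 and 2.80e-04). The call of Ppara was lost when the methods' t-test was adjusted by Benjamini and Hochberg (adjusted p = 0.0974), but not without that adjustment.

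**Figure D4:**
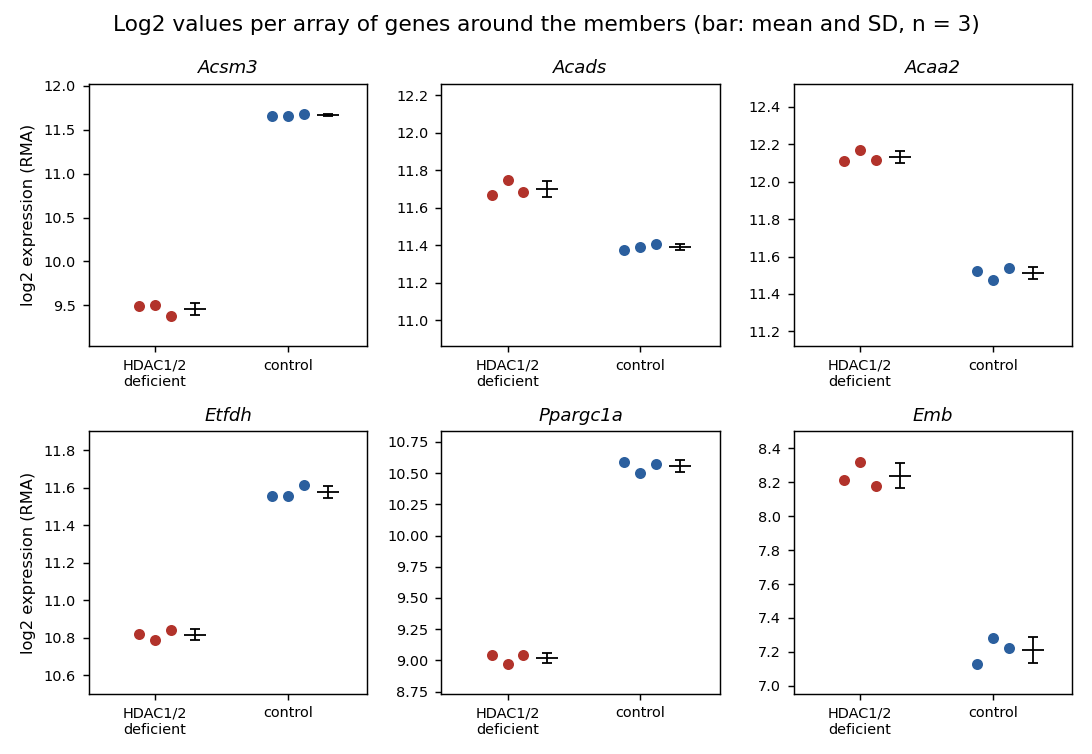
Log2 expression (vertical axis, RMA values) of 6 genes around the members, with 1 point per array and a bar for mean and SD of 3 arrays, HDAC1/2 deficient on the left and control on the right of each panel. Acsm3, Etfdh and Ppargc1a lie lower and Acads, Acaa2 and Emb higher on all 3 deficient arrays, and the vertical axes do not start at 0.

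Markers of the absorptive epithelium, in which the transporters and the ketone body enzymes are known to be expressed, went both ways. Of 7 general epithelial genes, 3 rose, 1 fell and 3 did not pass, with a summed level of 16.84 to 16.86 in deficient colon and 16.81 to 16.82 in control colon on the log2 scale. Epcam, which encodes an adhesion molecule of epithelia, fell by 0.16 on the log2 scale, and Vil1, the villin gene, rose by 0.35. Of 6 colonocyte genes, 2 rose, 2 fell and 2 did not pass, with a summed level of 16.46 to 16.47 in deficient colon and 16.42 to 16.43 in control colon. Car1, a colonic carbonic anhydrase gene, and Krt20 rose by 0.57 and 0.67 on the log2 scale. Slc26a3, the chloride and bicarbonate exchanger gene, and Guca2a fell by 0.34 and 0.56. The water channel gene Aqp8 was at 12.92 in deficient and 12.94 in control colon. Markers of other tissues varied. None of 4 hepatocyte genes and 1 of 4 adipocyte genes measured passed. All 6 smooth muscle genes fell, by log2 changes of -0.69 to -0.13, all 5 squamous epithelium genes fell with a median of -2.90, and all 4 pancreatic acinar genes measured rose with a median of 6.44. Of 8 small intestinal enterocyte genes measured, 5 rose, 3 of them more than 2-fold, 0 fell and 3 did not pass, with a median of 0.19. Their summed level was 14.3 on the deficient arrays and 12.1 on the control arrays. The largest change was that of Alpi, an alkaline phosphatase gene, at 12.32 in deficient and 7.23 in control colon. Fabp6 was at 13.41 in deficient and 8.91 in control colon, and Fabp1 at 8.75 and 5.33. Fabp2, the brightest gene of the list by its mean over the 6 arrays, rose by 0.16 on the log2 scale. The part of these tissues and cells in the changes of the members was not tested.

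The genes most like each member in pattern were sought by the root mean square difference of centred log2 values over the 6 arrays. Nearest to Slc5a8 were Tm7sf3, Tmem168 and Ptprg (0.0125, 0.0141 and 0.0172), and nearest to Slc16a1 were Uimc1, Bhlhe40 and Magi3 (0.013 to 0.014). For Acat1 they were Pamr1, Ppip5k1 and Nr2c1 (0.0080 to 0.018), for Oxct1 Mxra8, Pdxdc1 and Zfr (0.0079 to 0.011), for Ffar2 Rbm14, Pglyrp1 and Il17rc (0.016 to 0.018), and for Bdh1 Eif3b, Elovl5 and Pbdc1 (0.0098 to 0.015). No member was among the nearest genes of another. Such likeness rests mainly on a like difference between the groups, and 106 genes lay within 0.05 of Slc5a8 and 1184 within 0.05 of Oxct1.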

How the data were processed

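According to the methods, colon RNA of 3 HDAC1/2 deficient and 3 control mice was measured on 1-colour Affymetrix arrays. The authors background-corrected and normalized the signals by RMA in Flexarray and deposited them on a log2 scale. Group and replicate number come from the labels. Of 45101 probe sets, 64 array controls were removed and 45037 were fitted in limma (version 3.58.1, R 4.3.3) without covariate, with Benjamini-Hochberg adjustment over all of them. Platform annotation, with symbols updated through Entrez identifiers, gave 1 symbol to 34945 probe sets, several to 932 and none to 9160, and only those with 1 symbol were named. Some genes of these pathways are not reported here.

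Members and lists were chosen with earlier results of these data known. Named were all members, up to 6 called genes of each list with the largest change, and genes needed for the background (Hcar2, Acads, Bsg). Up to 3 genes of highest mean in each marker list and the 3 genes nearest in pattern to each member were named too. The called genes Slc16a10, Hadhb, Hnf4a and Esrra, with smaller changes, were added. Other genes without a call and most marker genes in the text were picked after their values were seen. Lists are described by counts and medians only. Summed levels are log2 of summed linear signals. Alternatives were the methods' t-test, repeated quantile normalization, median centring, a filter at the 40th percentile of mean signal, trended robust eBayes, array weights, omission of _s_at and _x_at probe sets, probe set means, a replicate block, and leaving out each array. Limma was tested on simulated data. The number of arrays limits precision, and no source used here names hybridization batches. Figures were drawn with matplotlib 3.10.9.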

Additional observations from a re-analysis of the deposited data

How the results depend on the processing

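The 6 measured members kept their direction and their side of the threshold under all 16 alternatives, with 2 higher and 4 lower in each. Their log2 fold changes ranged from -0.87 to -0.82 for Slc5a8, -0.62 to -0.43 for Slc16a1, -0.69 to -0.61 for Acat1, -0.24 to -0.18 for Oxct1, 0.54 to 0.60 for Ffar2 and 0.29 to 0.50 for Bdh1, whose lowest value was the mean of its probe sets. Without 1 array, the largest adjusted p of a member was 0.0164, for Oxct1. No source used here says that the replicate numbers pair the mice. The deviations of same-numbered arrays correlated at 0.10, 0.06 and -0.03. As the spread within groups may be technical, these values cannot show whether the mice were paired. With the replicate block 2 members were higher and 4 lower, and Acsm1, Hadhb and Esrra lost their calls (adjusted p = 0.0930, 0.0520 and 0.0732). Without 1 array, 5 to 7 carrier genes, 5 to 7 genes of butyrate oxidation, 2 to 3 ketone body genes and 7 regulators passed, 5 of the regulators lower. With the replicate block, with probe set means and without _s_at and _x_at probe sets, 5 regulators were lower too. The call of Bdh2 was lost under the methods' t-test (adjusted p = 0.169), and those of Acsm1, Bdh2, Slc16a13, Slc16a10, Hadhb and Esrra without 1 or more single arrays. With probe sets averaged Hadhb was at -0.01, Esrra at -0.07 and Slc16a10 at -0.10 and none of them passed. Ppara lost its call only when the methods' t-test was adjusted by Benjamini and Hochberg (adjusted p = 0.0974). Without probe sets of shared sequence, the brightest one left for Hnf4a did not pass (-0.05, limma adjusted p = 0.644), while the dimmest fell by 0.36. As probe set means, Emb was at 0.64, Etfdh at -0.40, Or51e2 at -0.29, Sirt5 at -0.63 and Ppara at 0.21. RMA compresses changes of dim probe sets, which bears on Hcar2, Or51e2, Acsm1 and Hmgcll1.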
